A study of Mus musculus with 7 samples.

Results

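The mRNAs described here encode 10 heat shock protein chaperones of mouse E14 embryonic stem cells (ESCs): Hspa8, Hspa4, Hsph1, Hsp90aa1, Hsp90ab1, Hspa5, Hsp90b1, Hspa9, Hspd1 and Hspe1. They were chosen by gene symbol among the transcripts with reverse transcription (RT) stop counts, and none of the 10 symbols was absent. They account for 10 of 13218 genes and 55 of 26827 listed transcripts. CIRS-seq counts where reverse transcriptase stopped on RNA that had been probed with dimethyl sulfate (DMS) or with the carbodiimide CMCT. DMS modifies unpaired adenines and cytosines, and CMCT modifies unpaired uridines and, less strongly, guanines. E14 is an established ESC line of strain 129/Ola, and all 3 groups were lysates of this line treated with Proteinase K before probing at 30 °C.

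The DMS group pooled aliquots treated with 50 to 200 mM DMS for 2 minutes, and the CMCT group pooled aliquots treated with 10 to 50 mM CMCT for 20 minutes. The not treated (NT) group pooled the aliquots without reagent from both buffers, so any difference between the buffers cannot be told apart from the reagents. Each group had 2 biological replicates per the study's methods, and both comparisons used the same NT libraries. A single ribosome-depleted RNA-seq library of the same line had no replicate. Every p-value below measures the spread between these 6 CIRS-seq libraries only.

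Heat shock proteins of the HSP70 class bind exposed hydrophobic stretches of client proteins in cycles driven by ATP, and HSP90 proteins act later on clients that are already partly folded. The chaperonin made of Hspd1 and its lid Hspe1 encloses proteins inside the mitochondrial matrix. ESCs express many of these genes constitutively, without heat stress, and Hspa8 and Hsp90ab1 are the forms usually called constitutive.

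The 9 places below show the sequence around single bases where DMS raised RT stops, each 21 bases long and read 5′ to 3′ in the mRNA, with the stopped base in capitals. They are shown because each is among the 2 largest passing changes of its mRNA, and the 25 bases that follow each of them occur once in the mm9 genome. The base is given by its position in mm9, and the sequences are those of the reference assembly.
Hspa8, chr9:40610096, + strand: aauuauugccAaugaccaggg
Hspa4, chr11:53094001, - strand: guguuuuaugAaugauauuga
Hsp90aa1, chr12:111932374, - strand: agaagaagauAaaggaaaagu
Hsp90ab1, chr17:45706036, - strand: gccuuuguggAgcgagugcgg
Hspa5, chr2:34629397, + strand: agcgacaagcAaccaaagaug
Hsp90b1, chr10:86168100, - strand: gccacgcaccAugaggguccu
Hspd1, chr1:55143692, - strand: aaagauguaaAauuuggugcg
Hspd1, chr1:55139920, - strand: agggugucauCacagugaagg
Hspe1, chr1:55145936, + strand: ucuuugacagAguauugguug
These 9 were picked from 17 places that met this rule. The pick was not always the larger change of an mRNA. For Hspa5 the printed base had a log2 fold change of 4.25 and the one not printed 7.81. The 8 not printed are coding adenines, 2 in Hspa9 and 1 each in Hspa8, Hsp90aa1, Hsp90ab1 and Hsp90b1, and UTR adenines of Hspa5 and Hspe1. Of the 9 bases 8 are adenines and 1 is a cytosine, and the Hsp90b1 base is the adenine of its start codon.

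The genes lie on 9 chromosomes of mm9. Among the cytosolic chaperones, Hspa8 spans chr9:40609067-40613283 on the + strand, Hspa4 chr11:53073316-53113959 on the - strand, and Hsph1 chr5:150416862-150438951 on the - strand. Hsp90aa1 spans chr12:111928815-111940938 and Hsp90ab1 chr17:45704724-45710220, both on the - strand. The endoplasmic reticulum (ER) chaperones Hspa5 and Hsp90b1 span chr2:34627490-34632051 on the + strand and chr10:86152954-86168254 on the - strand. Of the mitochondrial chaperones, Hspa9 spans chr18:35097068-35114011 on the - strand. Hspd1 spans chr1:55134679-55145087 on the - strand and Hspe1 chr1:55144976-55148151 on the + strand, so the genes overlap head to head by 112 bases, which belong to an Hspd1 isoform other than its reference mRNA. Their reference mRNAs, taken as the protein-coding isoform with the longest coding region, ran from 774 bases for Hspe1 to 4618 bases for Hspa4. Their 5′ untranslated regions (UTRs) ran from 105 bases for Hsp90ab1 to 370 bases for Hspa8, and their 3′ UTRs from 83 bases for Hspa8 to 1798 bases for Hspa4.

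Several of these mRNAs have near copies elsewhere in the genome, which limits what a count at their positions means. A read that stops at a position begins with the bases just after it, so each position was classed by how often the following 25 bases occur in mm9. For Hspa8, 1942 of 2394 positions had copies, as had 2614 of 3281 for Hsp90aa1, 1770 of 2423 for Hspd1 and 428 of 774 for Hspe1. Hsp90ab1 had 801 such positions of 2520 and Hspa9 had 787 of 3049. For Hspa5 there were 0 of 2613, for Hspa4 7 of 4618, for Hsph1 5 of 3802 and for Hsp90b1 125 of 2825. Many of the copies were processed pseudogenes that are themselves listed with counts. At 1610 positions Hspd1 shared its following bases with the pseudogene Gm12141, and at 821 of these the counts were identical in all 6 libraries. For Hspa8 and Gm15459 this held for 764 of 1876 positions, and for Hsp90aa1 and Gm12346 for 703 of 1925. Values over all positions of these mRNAs therefore include stops that the files also list for a pseudogene.

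**Figure D1:**
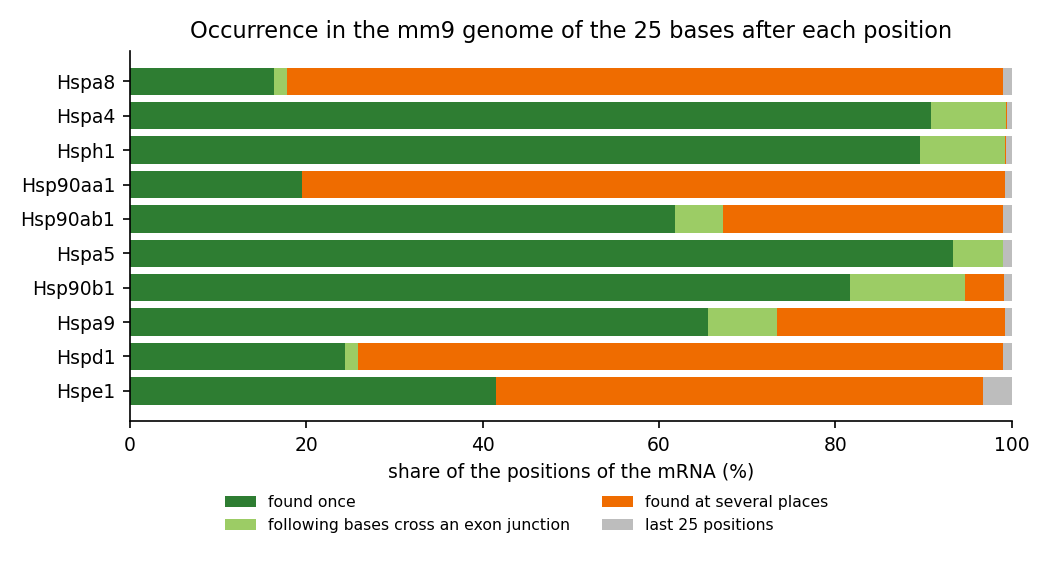
Share of the positions of each mRNA (horizontal axis, percent) by how often the 25 bases after the position occur in the mm9 genome. Hspa8, Hsp90aa1 and Hspd1 consist mostly of positions found at several places, whereas Hspa5, Hspa4, Hsph1 and Hsp90b1 consist mostly of positions found once.

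The libraries held between 181944556 and 338201940 listed RT stops, with each isoform listed separately. Counted once per genomic position of a gene, they held 140186204 to 247369982 stops, of which 10823804 to 19874875 lay at positions found once. Levels are given as scaled RT stops per base, that is the count divided by the library's effective size relative to the mean of the 6 libraries, per position of the gene. In the RNA-seq library, all 10 ESC markers examined reached at least 1 RPKM (reads per kilobase of exon, scaled to the reads of the library), from 9.89 to 145. None of 4 fibroblast and none of 3 mesoderm markers did, against 1 of the 2 neural markers with a value and 3 of 4 primitive endoderm markers, the latter at 0.793 to 5.22.

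Among the cytosolic HSP70 group, Hspa8, which folds newly made proteins and uncoats clathrin vesicles, had the highest level of the 10 mRNAs in NT. It had 22.1 and 20.0 scaled RT stops per base in the 2 NT libraries, 11.98 and 9.92 after DMS, and 15.9 and 15.3 after CMCT. Hspa4, a nucleotide exchange factor of HSP70, had 1.08 and 0.813 in NT, 1.15 and 0.773 after DMS, and 1.57 and 1.74 after CMCT. Hsph1, the related exchange factor also called Hsp110, had the lowest level, at 0.224 and 0.214 in NT, 0.204 and 0.149 after DMS, and 0.360 and 0.425 after CMCT.

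In NT the cytosolic HSP90 mRNAs came next to Hspa8. Hsp90ab1 had 11.4 and 8.42 scaled RT stops per base in NT, 13.3 and 10.1 after DMS, and 14.04 and 15.5 after CMCT. Hsp90aa1, the form that heat induces more strongly, had 10.2 and 7.94 in NT, 9.61 and 7.62 after DMS, and 11.5 and 12.5 after CMCT. The NT values of Hsp90ab1 and Hsp90aa1 overlapped, and both groups lay below those of Hspa8.

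The organelle chaperones had intermediate levels in NT. Hspd1, the chaperonin subunit, had 2.12 and 1.92, its partner Hspe1 1.94 and 1.64, and Hspa9, which pulls imported proteins into the mitochondrial matrix, 1.76 and 1.41 scaled RT stops per base. In the ER, Hsp90b1 had 1.16 and 0.925, and Hspa5, the HSP70 protein also called BiP that holds unfolded proteins there, 0.898 and 0.804. Ordered by the mean over all 6 libraries, the 10 ran from Hspa8 (15.9), Hsp90ab1 (12.1), Hsp90aa1 (9.89), Hspd1 (2.55), Hspe1 (2.36), Hspa9 (1.89), Hsp90b1 (1.496), Hspa4 (1.19) and Hspa5 (0.998) to Hsph1 (0.263). Hspa8 led in both NT libraries and in CMCT replicate 1, and Hsp90ab1 in both DMS libraries and in CMCT replicate 2. In the NT libraries the neighbours Hspd1 and Hspe1, Hspe1 and Hspa9, Hsp90b1 and Hspa4, and Hspa4 and Hspa5 overlapped, so their order does not exceed the spread between replicates. The median over 7943 protein-coding genes was 0.912, above Hsph1 alone among the 10. All these levels count the positions of every listed isoform, retained introns included. Over the reference mRNAs alone, Hspa8 lay above Hsp90ab1 in every library, and Hspe1 above Hspd1 in both NT libraries. At positions found once, Hsp90ab1 led at 12.1, followed by Hspa8 at 5.92 and Hsp90aa1 at 4.81, against a median of 0.257 over 7810 protein-coding genes. The Hspa8 value there includes stops beside intronic snoRNA genes, Snord14c, Snord14d and Snord14e. Without the positions within 5 bases of them, left out after seeing the data, Hspa8 had a mean of 1.79, below Hsp90aa1.

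In the RNA-seq library, Hspa8 was first, at an RPKM of 852 from 105651 alignments, here counting all listed alignments and scaled to their total. Hsp90aa1 had 557, Hsp90ab1 545, Hspd1 116 and Hspa5 111 on this scale. Hsp90b1 had 73.7, Hspa9 70.2, Hspa4 65.3, Hspe1 48.2 and Hsph1 7.60, against a median of 3.68 over the 7943 protein-coding genes. Over the 10 mRNAs the order of these levels and that of RT stops per base had a Spearman correlation of 0.78 (n = 10), given as a description, since both measures include the shared copies.

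That order depended on reads with several places. The RNA-seq file lists a read on up to 10 lines, and 82.2% of its reads occurred on only 1 line. Of the Hspa8 alignments, 2.38% belonged to reads listed once (95% Wilson interval 2.29 to 2.47), against 15.6% for Hsp90aa1 (15.4 to 15.9), 35.5% for Hspd1 (34.5 to 36.5) and 46.1% for Hspe1 (44.0 to 48.2). For the other 6 the share ran from 86.9% to 98.8%. With only those reads counted, Hsp90ab1 came first at an RPKM of 809, then Hspa5 at 187, Hsp90aa1 at 149, Hsp90b1 at 122, Hspa9 at 110, Hspa4 at 106, Hspd1 at 70.4, Hspe1 at 38.0, Hspa8 at 34.7 and Hsph1 at 12.7. These values are scaled to the 18630971 reads listed once, not to all alignments, so they and those above differ in scale. They still divide by the whole exon length, which includes the positions with copies. Divided by the positions found once instead, a choice made after seeing the data, Hsp90aa1 stood at 470 and Hspd1 at 220, next after Hsp90ab1 at 1181. On that scale Hspa5 had 194, Hspa8 61.1 and Hspe1 51.3. The reads counted are still those of all exon positions, including positions with copies. These values can therefore be too high, most of all where few positions are found once. The correlations over the positions found once share this limit. The rank correlation with RT stops at positions found once was 0.25 over the whole exon length and 0.55 over the positions found once (n = 10 for each), and 0.32 and 0.62 without the Hspa8 positions near Snord14. The kit used for this library does not mark strand, and intervals cover counting error only.

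DMS raised RT stops at the adenines of 9 of the 10 mRNAs. This is read against 61.1% of 12725 genes with adenines tested that were also higher, by edgeR's quasi-likelihood test at an adjusted p below 0.05 over all genes and bases. The median log2 fold change was 1.54 over the 10 mRNAs and 1.29 over all genes.

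Within the cytosolic HSP70 group, Hspa4 had 0.523 and 0.490 scaled RT stops per adenine in NT and 1.53 and 1.38 after DMS. Its log2 fold change was 1.52 ± 0.31 (edgeR adjusted p = 0.003). Here and below, ± gives an approximate standard error (SE) computed from the log2 fold change and edgeR's F statistic. Hsph1 had 0.124 and 0.158 in NT and 0.275 and 0.271 after DMS, a log2 fold change of 0.95 ± 0.27 (edgeR adjusted p = 0.018). Hspa8 had 11.1 and 9.26 in NT and 15.8 and 17.2 after DMS, a log2 fold change of 0.70 ± 0.39 that did not pass (edgeR adjusted p = 0.18). Every DMS library lay above both NT libraries in these 3 mRNAs, although only Hspa4 and Hsph1 passed the test.

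The cytosolic HSP90 pair moved by nearly the same amount. Hsp90aa1 had 4.17 and 3.87 scaled RT stops per adenine in NT and 11.6 in both DMS libraries, a log2 fold change of 1.53 ± 0.39 (edgeR adjusted p = 0.01). Hsp90ab1 had 6.14 and 4.95 in NT and 16.7 and 17.4 after DMS, a log2 fold change of 1.62 ± 0.39 (edgeR adjusted p = 0.0075). The 2 differences lay within each other's standard error, and a test between them was not made.

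In the ER, Hspa5 had 0.531 and 0.475 scaled RT stops per adenine in NT and 1.46 and 1.97 after DMS, a log2 fold change of 1.77 ± 0.31 (edgeR adjusted p = 0.0016). Hsp90b1, the HSP90 protein of the ER, had 0.628 and 0.531 in NT and 2.171 and 3.40 after DMS, a log2 fold change of 2.26 ± 0.35 (edgeR adjusted p = 0.00094). In both mRNAs the second DMS replicate was the higher.

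In the mitochondrial group, Hspa9 had 0.872 and 0.800 scaled RT stops per adenine in NT and 2.60 and 2.29 after DMS. Hspd1 had 1.22 and 1.15 in NT and 3.42 in both DMS libraries, and the log2 fold changes were 1.55 ± 0.32 for Hspa9 and 1.53 ± 0.31 for Hspd1 (edgeR adjusted p = 0.0033 and 0.0031). Hspe1 had 0.844 and 0.571 in NT and 3.00 and 8.26 after DMS, a log2 fold change of 2.99 ± 0.47 (edgeR adjusted p = 0.00096), the highest of the 10 over all positions. Counting positions found once it was 2.29 ± 0.46, beside 2.27 ± 0.36 for Hsp90b1 (edgeR adjusted p = 0.006 and 0.0025). The DMS libraries of Hspe1 were farther apart than those of any other member, yet both lay above both NT libraries.

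**Figure D2:**
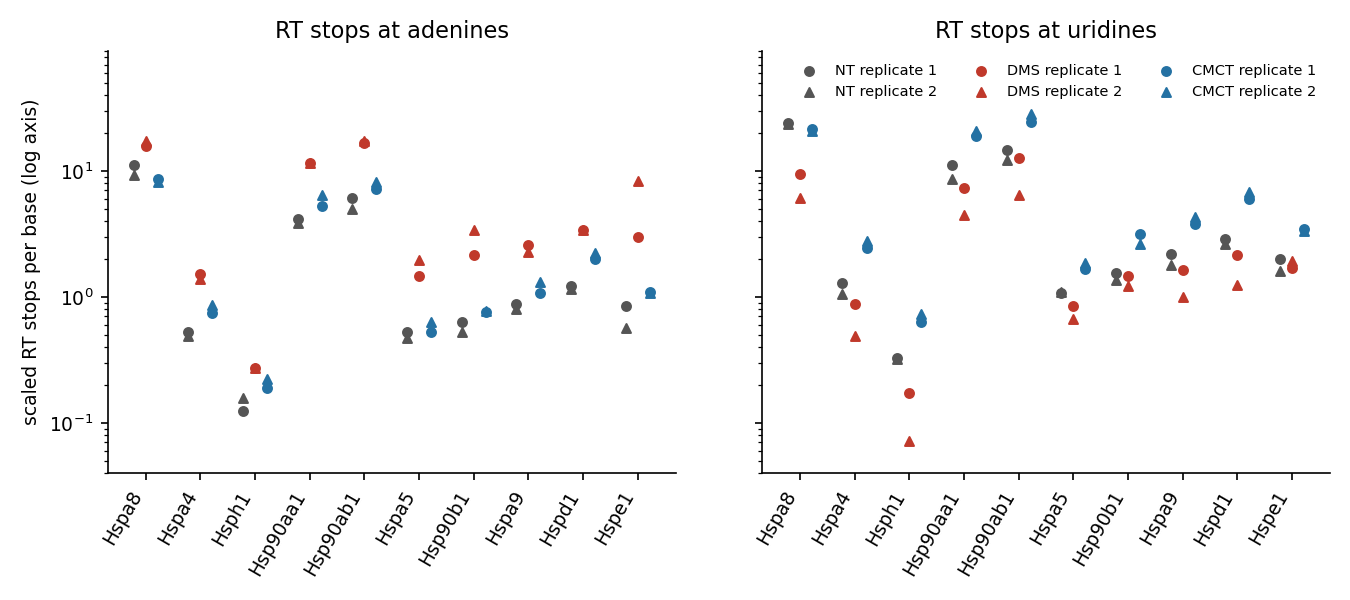
Scaled RT stops per adenine (left) and per uridine (right) of each mRNA, log axis, with circles for replicate 1 and triangles for replicate 2 of NT (grey), DMS (red) and CMCT (blue). Over all positions, both DMS libraries lie above both NT libraries at the adenines of all 10 mRNAs. At uridines both CMCT libraries lie above both NT libraries in every mRNA but Hspa8, where they do so over the reference mRNA alone. The share of all genes that separate in this way was not counted. By edgeR's test 61.1% of genes were higher at adenines after DMS and 19.9% at uridines after CMCT.

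Seen as shares, adenines took 11.02% to 16.6% of the stops of these mRNAs in the first NT library and 8.82% to 21.2% in the second. After DMS they took 32.9% to 40.1% in the first replicate and 43.4% to 52.8% in the second, so the ranges of NT and DMS did not overlap. How many other genes separate in this way was not counted. In NT the medians over the 10 were 14.03% and 16.3%, against 12.4% and 13.8% over protein-coding genes with at least 100 stops. After DMS they were 36.8% and 50.2%, against 27.5% and 34.6%. The 10 thus lay above these genes before DMS as well. Such shares also depend on how many adenines a gene has, which was not compared. Whether the 10 respond more than other genes was not tested. For cytosines, 0 of the 10 mRNAs were higher after DMS by edgeR at an adjusted p below 0.05, where the background was 8.74%, and at an unadjusted p below 0.05 only Hspa8 was reached, lower by 1.22 on the log2 scale, where 29.7% of genes were reached in either direction. Counting positions found once, cytosine stops of Hspa8 (-1.58) and Hsp90aa1 (-1.41) passed as lower (edgeR adjusted p = 0.0085 and 0.02), where 6.68% of genes did. At uridines, DMS lowered Hspa8 by 1.61 ± 0.43 and Hsph1 by 1.41 ± 0.38 on the log2 scale (edgeR adjusted p = 0.014 and 0.013), read against 26.7% of genes that were lower. The Hspa8 call was lost without either NT library, without DMS replicate 2, and over its reference mRNA alone (-0.99, edgeR adjusted p = 0.11). The Hsph1 call was lost without DMS replicate 2. Counting positions found once, Hsp90aa1 was lower too (-1.03, edgeR adjusted p = 0.037), where 23.1% of genes were. At guanines DMS lowered Hspa8 by 1.71 ± 0.40 (edgeR adjusted p = 0.0068), read against 21.8%. That call was lost without DMS replicate 2 and over the reference mRNA alone (-1.03, edgeR adjusted p = 0.054). Hspd1 was at -0.81 in this test (edgeR adjusted p = 0.055). It passed over its reference mRNA (-0.87, edgeR adjusted p = 0.049), where 22.4% of genes were lower, and at positions found once (-1.42, edgeR adjusted p = 0.0092), where 14.9% were.

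The number of mRNAs raised at adenines was 7 without NT replicate 1, when Hsp90aa1 and Hsph1 no longer passed, and 7 without NT replicate 2, when Hsp90aa1 and Hsp90ab1 no longer passed. It was 9 without either DMS library. Each of these fits leaves 1 library in a treatment. Calls over all genes changed in them too, so these counts do not set the 10 mRNAs apart. At positions found once 8 of the 10 passed, read against 69% of genes, and Hsph1 was the member that no longer did.

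Hspa8 turned direction between these ways of counting. At positions found once, its adenine stops were lower after DMS, with a log2 fold change of -1.29 ± 0.34 (edgeR adjusted p = 0.019), where 2.76% of genes were lower. Over its reference mRNA alone they were higher, from 9.44 and 7.93 scaled RT stops per adenine in NT to 21.5 and 24.8 after DMS, with a log2 fold change of 1.39 ± 0.41 (edgeR adjusted p = 0.02), where 61.9% of genes were higher. The Hspa8 gene hosts the small nucleolar RNAs Snord14c, Snord14d and Snord14e in its introns, and 4 of its 9 listed transcripts retain introns. Stops within 5 bases of these snoRNAs made up 79.0% and 83.3% of the Hspa8 stops at positions found once in NT, 45.3% and 46.4% after DMS, and 66.1% and 72.9% after CMCT. The part of the snoRNAs in the reversal was not tested beyond these counts.

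CMCT raised RT stops at the uridines of 4 of the 10 mRNAs, read against 19.9% of 12974 genes. The log2 fold changes were 1.22 ± 0.36 for Hspd1, 1.16 ± 0.37 for Hspa4, 0.99 ± 0.32 for Hsp90b1 and 0.91 ± 0.29 for Hspe1, with edgeR adjusted p-values of 0.035, 0.046, 0.049 and 0.046. Hspd1 had 2.88 and 2.63 scaled RT stops per uridine in NT and 5.97 and 6.86 after CMCT. Hspa4 had 1.30 and 1.05 in NT and 2.45 and 2.79 after CMCT, and Hspe1 had 2.01 and 1.61 against 3.49 and 3.31.

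In 5 others the CMCT libraries also lay above both NT libraries without passing. The share of all genes that separate in this way was not counted. Hsph1 had 0.328 and 0.322 scaled RT stops per uridine in NT and 0.638 and 0.727 after CMCT (log2 fold change 1.07 ± 0.37, edgeR adjusted p = 0.058). Hspa9, Hsp90aa1, Hsp90ab1 and Hspa5 had log2 fold changes of 1.03, 1.00, 0.99 and 0.70. Over all isoforms Hspa8 stood apart at 24.1 and 23.5 in NT and 21.4 and 20.9 after CMCT. Over its reference mRNA alone it had 24.2 and 18.6 in NT and 35.9 and 33.2 after CMCT. The log2 fold change there was 0.66 ± 0.45 and did not pass (edgeR adjusted p = 0.32). Hsph1 passed at guanines instead, with a log2 fold change of 0.95 ± 0.28 (edgeR adjusted p = 0.035), where 5.69% of genes were higher. This call was lost at positions found once (edgeR adjusted p = 0.15), over the reference mRNA alone (0.088), under DESeq2's size factors, and without any single NT or CMCT library.

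The uridine calls depended on the setting. None of the 10 passed when DESeq2's size factors replaced TMM scaling, when either NT or either CMCT library was left out, or at positions found once, where 9.7% of genes passed. Over the reference mRNA alone 1 passed (Hspd1), where 18.4% did. The log2 fold change stayed positive in 9 of the 10 under each of these settings but the last, where it was positive in all 10. The shares of all genes passing with DESeq2's size factors or without 1 library are not given. Those counts therefore do not set the 10 mRNAs apart. With TMM scaling the median log2 fold change of all genes after CMCT was 0.11, and the median over the 10 at uridines was 0.99 against 0.41 over all genes.

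Summed over a whole gene, few of these mRNAs changed. After DMS, 0 of 10 passed edgeR's test, where 13.8% of 13216 genes were higher and 12.5% lower, and 3 of the 10 had an unadjusted p below 0.05, as had 40.7% of all genes. DESeq2 called 3, with Hsp90b1 and Hspe1 higher and Hspa8 lower, where it called 22% of genes higher and 20.3% lower. In edgeR's test Hspa8 was at -0.94 over all isoforms (edgeR adjusted p = 0.084) and at -0.24 over its reference mRNA alone (edgeR adjusted p = 0.68). Hspe1 was at 0.79 over all positions and at 0.02 at positions found once, and neither passed. Over all positions its value was 0.15 without DMS replicate 2 and 1.15 without DMS replicate 1. At positions found once Hspa8 alone passed, lower by 1.86 ± 0.28 on the log2 scale (edgeR adjusted p = 0.02), where 2.64% of genes were lower. Of those NT stops, 79.0% and 83.3% lay within 5 bases of the Snord14 genes. Without those positions Hspa8 had 2.06 and 2.12 scaled RT stops per base in NT and 1.69 and 1.68 after DMS, a log2 ratio of -0.31, for which no test was run. Its 59 coding positions found once had 6.22 and 4.57 scaled RT stops per base in NT and 10.37 and 7.80 after DMS, a log2 fold change of 0.75 ± 0.25 that did not pass (edgeR adjusted p = 0.13). After CMCT, Hsph1 alone passed, with a log2 fold change of 0.84 ± 0.25 (edgeR adjusted p = 0.024), where 15% of genes were higher. It no longer passed without NT replicate 1, NT replicate 2, DMS replicate 2 or CMCT replicate 2, or at positions found once.

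The regions of the reference mRNAs were tested separately. The 5′ UTR of Hspd1 had 1.85 and 2.13 scaled RT stops per base in NT, 0.896 and 0.846 after DMS, and 0.805 and 0.811 after CMCT. Both reagents lowered it, by 1.19 ± 0.26 for DMS and 1.30 ± 0.26 for CMCT on the log2 scale (edgeR adjusted p = 0.0046 and 0.0026). The 5′ UTR of Hsp90aa1 had 50.8 and 49.4 in NT, 19.2 and 20.8 after DMS, and 27.2 and 19.3 after CMCT. It fell by 1.32 ± 0.35 and 1.11 ± 0.35 on the log2 scale (edgeR adjusted p = 0.017 and 0.035). The 5′ UTR of Hspa4 had 1.14 and 1.02 in NT and 0.657 and 0.382 after DMS, and fell by 1.06 ± 0.30 on the log2 scale (edgeR adjusted p = 0.027).

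In all, 3 of 10 5′ UTRs were lower after DMS, where 12.7% of 4784 genes were, and 2 of 10 after CMCT, where 21.2% were. None was higher, where 2.97% were after DMS and 2.09% after CMCT. The fall in Hspd1 passed without any single library for both reagents. That in Hsp90aa1 was lost for DMS without either DMS library, and for CMCT without either NT, DMS or CMCT library. That in Hspa4 was lost without either NT library, without DMS replicate 2, or at positions found once (edgeR adjusted p = 0.09). At positions found once the adjusted p for DMS became 0.051 for Hspd1 and 0.052 for Hsp90aa1, while both kept the CMCT call at 0.029 and 0.039. At those positions 0.303% of 5′ UTRs were lower after DMS and 9.94% after CMCT.

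Other regions rose. The coding region of Hspe1 had 3.77 and 2.169 scaled RT stops per base in NT and 6.41 and 13.0 after DMS, a log2 fold change of 1.71 ± 0.38 (edgeR adjusted p = 0.0053), where 6.27% of 6256 coding regions were higher. This call was lost without NT replicate 2 and without DMS replicate 2. Its 3′ UTR had 0.768 and 0.799 in NT, 1.63 and 2.09 after DMS, and 1.55 and 2.39 after CMCT, with log2 fold changes of 1.25 ± 0.29 and 1.33 ± 0.29 (edgeR adjusted p = 0.0076 and 0.0047). These were read against 6.71% and 8.09% of 5884 3′ UTRs that were higher, and the CMCT call was lost without CMCT replicate 2. Over the 14 positions found once in this 3′ UTR the CMCT rise still passed, at 1.98 ± 0.31 (edgeR adjusted p = 0.03), where 1.92% of 3′ UTRs were higher. The 3′ UTR of Hsp90aa1 passed in that setting too, over 413 positions, at 1.19 ± 0.22 (edgeR adjusted p = 0.036). Over all positions it did not (0.69 ± 0.32, edgeR adjusted p = 0.15). Neither DMS call of Hspe1 passed at positions found once, at 1.23 ± 0.41 for the coding region and 0.63 ± 0.32 for the 3′ UTR (edgeR adjusted p = 0.14 and 0.25).

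The 3′ UTR of Hspa5 had 0.727 and 0.680 in NT and 1.03 and 1.90 after DMS, a log2 fold change of 1.06 ± 0.31 (edgeR adjusted p = 0.031). Leaving out any library except DMS replicate 1 ended this call, as did counting only positions found once (1.10 ± 0.34, edgeR adjusted p = 0.12). After CMCT the 3′ UTR of Hspd1 rose by 0.89 ± 0.29 on the log2 scale (edgeR adjusted p = 0.04). The coding region of Hsph1 rose by 0.93 ± 0.27 (edgeR adjusted p = 0.025), where 9.7% of coding regions were higher. The Hspd1 call was lost without any single library, and the Hsph1 call without NT replicate 2 or either CMCT library. Over positions found once the Hspd1 value was 0.14 ± 0.38, over 36 positions, and the Hsph1 value 0.73 ± 0.24, and neither passed (edgeR adjusted p = 0.84 and 0.10).

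Compared within each library, the 5′ UTR of Hsp90aa1 carried 3.83 and 5.33 times as many stops per base as its coding region in NT, 1.39 and 2.01 times after DMS, and 1.65 and 1.08 times after CMCT. The median ratio of 5′ UTR to coding region over the 10 was 0.841 and 1.15 in NT, 0.556 and 0.635 after DMS, and 0.457 and 0.578 after CMCT. Over 3477 protein-coding genes it was 0.717 and 0.912, 0.533 and 0.631, and 0.473 and 0.477. For the 3′ UTR the median over the 10 was 0.245 and 0.416 in NT, against 0.517 and 0.607 over 3973 genes. Only Hspd1 had more stops per base in its 3′ UTR than in its coding region in both NT libraries.

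**Figure D3:**
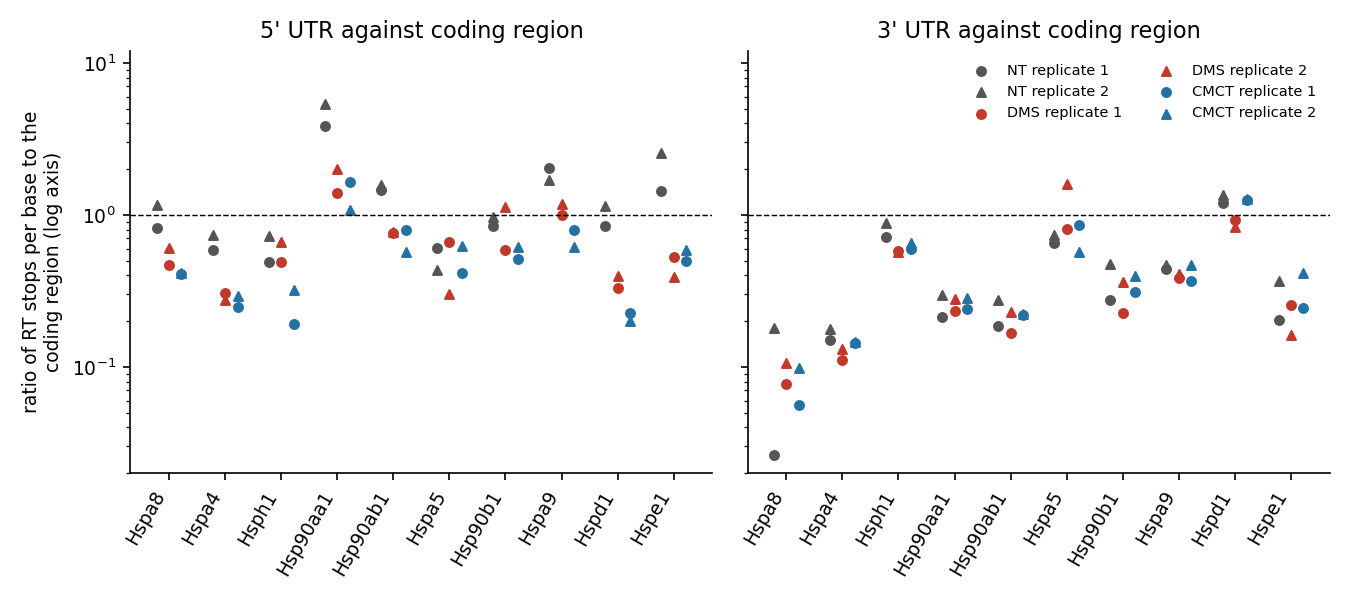
Ratio of RT stops per base in the 5′ UTR (left) and the 3′ UTR (right) to those in the coding region of the same mRNA, log axis, for the 6 libraries; the dashed line marks a ratio of 1. The 5′ UTR of Hsp90aa1 lies highest, at 3.83 and 5.33 in NT. Both CMCT libraries lie below both NT libraries for the 5′ UTR in 9 of the 10 mRNAs, all but Hspa5. The share of all genes that separate in this way was not counted. The median over 3477 protein-coding genes was lower after CMCT as well, at 0.473 and 0.477 against 0.717 and 0.912 in NT.

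At single positions found once and holding at least 50 stops over the 6 libraries, 1298 positions of the 10 mRNAs entered the test. DMS raised 125 of them and lowered 56, where 5.45% and 3.43% of 92661 positions did so. Of the 125 positions, 114 were adenines, 5 cytosines, 6 uridines and 0 guanines. The 114 stood among 311 tested adenines, read against 27.9% of all tested adenines. Of the 56 that fell, 27 were uridines, 13 guanines, 12 cytosines and 4 adenines. Of the 125 raised positions 110, and of the 114 adenines 102, had fewer than 50 stops in the NT and CMCT libraries together. They reached the minimum only with their DMS stops, so these counts are not independent of it and are given as a description. The shares of all positions were found under the same minimum. Over all tested positions of each base, 1.15% of cytosines, 1.1% of guanines and 0.576% of uridines rose, while 0.982% of adenines, 1.87% of cytosines, 4.36% of guanines and 5.77% of uridines fell.

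Hsp90ab1 alone held 78 of the 125 raised positions, 76 of them adenines, out of 583 tested. Hsp90aa1 held 14 of 86 tested, Hspa8 11 of 121, Hspa9 8 of 131, Hsp90b1 4 of 117, Hspe1 4 of 49, Hspa5 3 of 52, Hspd1 2 of 30 and Hspa4 1 of 124. Hsph1, with the fewest stops, had 5 tested positions and none that passed. By region, 108 of 263 tested adenines in coding regions rose, 2 of 12 in 5′ UTRs, 3 of 13 in 3′ UTRs and 1 of 23 in stretches of other isoforms. Over all protein-coding genes the shares were 36.4% in coding regions, 14.7% in 5′ UTRs, 10.8% in 3′ UTRs and 9.27% in other isoforms. Within codons, 61 of 130 tested adenines at the first base rose, 28 of 98 at the second and 19 of 35 at the third, against 44.5%, 26.1% and 37.1% over all protein-coding genes. Without Hsp90ab1 the coding regions of the others held 32 raised of 93 tested adenines, and the codon bases 14 of 42, 7 of 32 and 11 of 19. These counts are a description with no test.

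Each single base described next had fewer than 50 stops in the NT and CMCT libraries together and entered the test only through its DMS stops. Its entry and its call are therefore not independent, and its values are given as a description with no p-value. The ± values of these bases come from the same test and carry the same limit. In Hsp90ab1, the adenine at coding position 1502, at the second base of codon 501, had 0 and 0 stops in NT, 49 and 66 after DMS, and 2 and 1 after CMCT. The adenine at coding position 1060 had 0 and 0, 49 and 57, and 6 and 5. Against a floor of 3 counts in each NT library, these were at least 14.1-fold and 12.9-fold higher by the mean of both DMS libraries. By DMS replicate 1 alone each was at least 11.4-fold higher. The second base of the Hsp90ab1 stop codon, singled out after its values were seen, had 0 and 0 stops in NT, 30 and 35 after DMS, and 2 and 0 after CMCT.

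**Figure D4:**
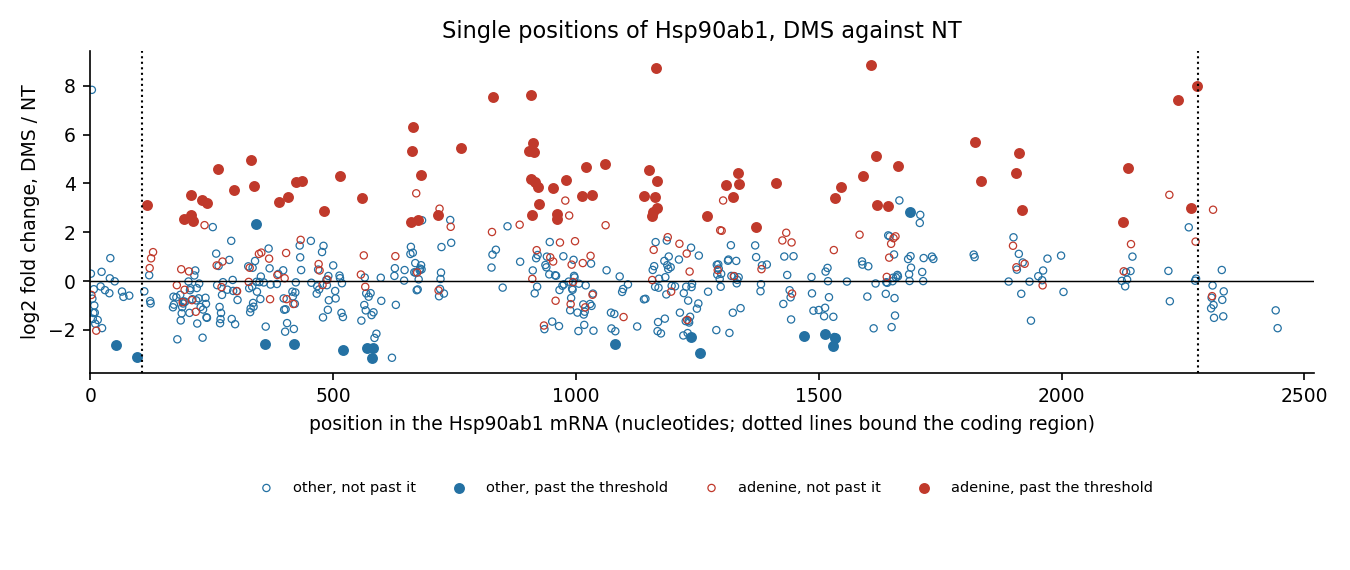
Log2 fold change of RT stops after DMS against NT (vertical axis) at the tested positions of the Hsp90ab1 mRNA (horizontal axis, nucleotides), adenines in red and other bases in blue, filled where the test passed. Raised adenines lie along the whole coding region, which the dotted lines bound, while the positions that passed as lower are not adenines.

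In the other cytosolic mRNAs, the Hspa8 adenine at coding position 91, shown above, had 0 and 0 stops in NT, 34 in both DMS libraries, and 2 and 2 after CMCT. That was at least 8.27-fold higher by the mean of both DMS libraries, and at least 7.91-fold by DMS replicate 1 alone. The Hspa8 adenine at coding position 409 had 5 and 1, then 91 and 106, and 14 and 10, a log2 fold change of 4.65 ± 0.66. It ends an exon, and the same counts are listed again at a uridine ending the intron of a retained-intron isoform, which the same 25 bases follow, so that these 2 positions are not independent. The Hsp90aa1 adenine at coding position 843 had 1 and 0 stops in NT and 39 and 40 after DMS, a log2 fold change of 5.68 ± 0.74, and that of Hspa4 at coding position 877 had 1 and 2 in NT and 26 in both DMS libraries (3.60 ± 0.63). That both DMS libraries lay above both NT libraries in these 4 bases follows from the rule by which they were chosen.

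In the ER mRNAs, the Hspa5 adenine at coding position 552 had 1 stop in each NT library, 29 and 26 after DMS, and 4 in each CMCT library (log2 fold change 4.25 ± 0.60). An adenine in the Hspa5 3′ UTR, at position 2293 of the mRNA, had 0 and 0, then 20 and 36, and 4 and 4. That was at least 6.89-fold higher by the mean of both DMS libraries, and at least 4.66-fold by DMS replicate 1 alone. The Hsp90b1 start codon adenine had 2 and 0 stops in NT, 21 in both DMS libraries, and 3 and 3 after CMCT (3.90 ± 0.83). This base held exactly 50 stops in all, the minimum. The Hsp90b1 gene overlaps the antisense lincRNA 1810014B01Rik over 1297 bases of its mRNA and the miRNA gene AC152453.1, on its own strand, over 133 bases that include the start codon.

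In the mitochondrial mRNAs, the Hspe1 adenine at coding position 45 had 0 and 0 stops in NT, 22 and 82 after DMS, and 6 and 2 after CMCT, at least 13.0-fold higher by the mean of both DMS libraries, and at least 5.12-fold by DMS replicate 1 alone. The Hspd1 adenine at coding position 92 had 2 and 2 stops in NT, 32 in both DMS libraries, and 3 and 1 after CMCT (log2 fold change 3.52 ± 0.54). The Hspd1 cytosine at coding position 597 had 3 and 2 in NT, 19 in both DMS libraries and 22 in both CMCT libraries (2.48 ± 0.55). The Hspa9 adenine at coding position 1469 had 1 in each NT library, 43 and 41 after DMS, and 10 and 9 after CMCT (4.85 ± 0.60). Thus the Hspd1 cytosine was as high after CMCT as after DMS, unlike the adenine of the same mRNA. Several of these counts were equal in both replicates. Of the positions of the 10 mRNAs with at least 20 stops summed over the replicates of a treatment, 16.8% (NT), 17.9% (DMS) and 13.2% (CMCT) had replicate counts no more than 1 apart, and in other genes 19.7%, 21.97% and 17.2% had.

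These position calls needed every NT and CMCT library in the fit. Without NT replicate 1, NT replicate 2, CMCT replicate 1 or CMCT replicate 2, no position of the 10 mRNAs passed for DMS, against 72 raised without DMS replicate 2 and 115 without DMS replicate 1. Over all tested positions too, DMS calls depended on the library left out, so this loss does not set the 10 mRNAs apart. For CMCT, edgeR called 0 of the 1298 positions and 0 of all 92661. At an unadjusted p below 0.05 there were 313 of the 1298 and 23861 of the 92661, and no other tool was run at this level.

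The normalised reactivity joins both reagents on a scale from 0 to 1, from the log2 ratio of treated to NT stops within each mRNA, with 1 set at its 90th percentile. Reactivity in the coding region ran from 0.308 for Hsph1 to 0.482 for Hspe1, with a median of 0.417 over the 10. In the 5′ UTR it ran from 0.083 for Hspa8 to 0.268 for Hsp90b1, median 0.175, and in the 3′ UTR from 0.164 for Hspa4 to 0.350 for Hspa8, median 0.275. Over up to 5195 other covered protein-coding genes the medians were 0.348, 0.217 and 0.232. In all 10 mRNAs both UTRs lay below the coding region, as did the 5′ UTR in 86.5% and the 3′ UTR in 89.3% of the other genes that have them. With positions found once alone, the 5′ UTR was below in all 10 but the 3′ UTR in 8. The exceptions were Hspa8 (0.429 against 0.396 in its coding region) and Hspe1 (0.916 against 0.589). The 3′ UTRs of Hspa8 and Hspe1 hold only 7 and 14 such positions. Without replicate 2 the 3′ UTR was below in 9, all except Hspa8.

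Within the coding region, the first codon base had the highest mean reactivity of the 3 in 7 of the 10 mRNAs, and in 61.8% of the other genes. With positions found once alone, it was highest in 3 of the 8 mRNAs with enough positions. The stretch from 6 bases before the start codon through its adenine was above the mean of the coding region in 4 of 10, Hsp90aa1 (0.564), Hsp90b1 (0.541), Hspd1 (0.523) and Hsp90ab1 (0.493), against 51.1% of the other genes. With positions found once alone, this held in 1 of the 5 mRNAs with enough positions. The start codon adenine itself reached 1 in Hspa5, Hspa4, Hsp90aa1, Hsp90b1 and Hspe1, and was 0 in Hspa9 and Hsph1, while it was 1 in 30.4% and 0 in 51.4% of 5195 other genes. These scores rest on few stops, since Hspa5 had 4 stops there in each DMS library and 0 in each NT library, while Hsph1 had 0 in all 6 libraries. The score of Hspa4 rests on CMCT, with 1 and 1 stops in NT, 0 and 0 after DMS, and 9 and 5 after CMCT.

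**Figure D5:**
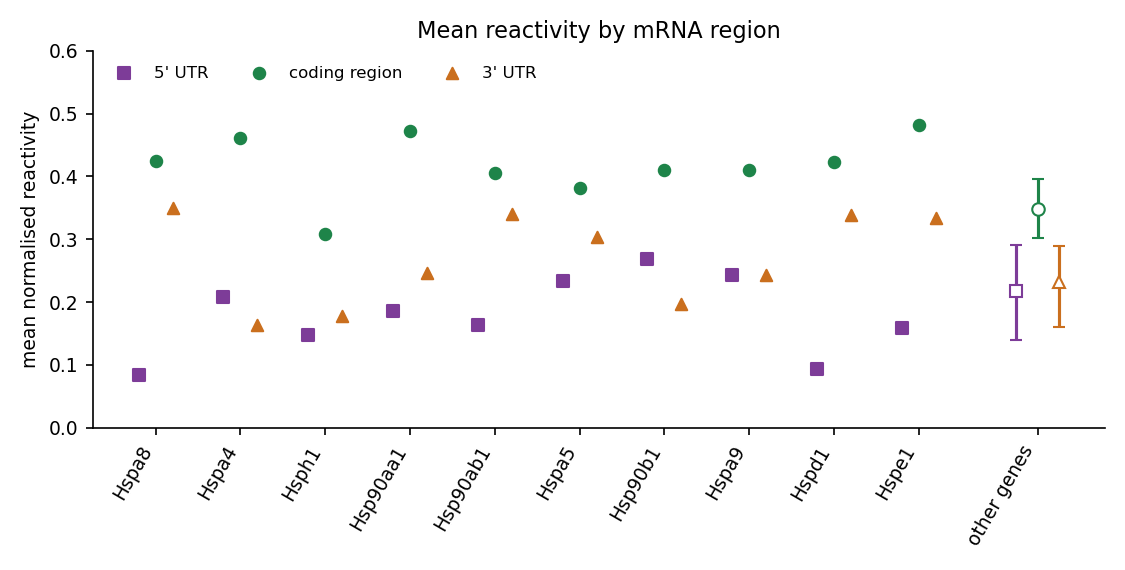
Mean normalised reactivity (vertical axis, 0 to 1 scale) of the 5′ UTR (squares), coding region (circles) and 3′ UTR (triangles) of each mRNA, both replicates summed; open symbols give the median of the other covered protein-coding genes and bars their quartiles. Over all positions, the coding region lies above both UTRs in each of the 10 mRNAs.

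Other chaperones and co-chaperones were read from a list of 88 genes, of which 67 had listed transcripts. At adenines 56 of the 67 were higher after DMS and 1 lower by edgeR's test, where 61.1% of all genes were higher and 3.99% lower, and their median log2 fold change was 1.57. The highest was Pfdn5, a prefoldin subunit that delivers actin and tubulin to their chaperonin (2.70), and the lowest Hsf2, a heat shock transcription factor (-1.98). At uridines after CMCT, 10 were higher and 6 lower, where 19.9% and 9.83% of all genes were, with a median log2 fold change of 0.60, from Hspa12b (1.43) to Hspa2, an HSP70 gene of male germ cells (-2.02). Summed per gene, 4 were higher and 8 lower after DMS, where 13.8% and 12.5% of all genes were. After CMCT 5 were higher and 10 lower, where 15% and 13.9% were. Hsf2 was the lowest per gene as well, at -2.03 after DMS and -1.99 after CMCT, close to its value at adenines. Hspa2 was at -1.98 per gene after CMCT, close to its value at uridines.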

How the data were processed

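E14 mouse ESC lysates were probed in 6 CIRS-seq libraries, 2 each of NT, DMS and CMCT, beside 1 RNA-seq library. The CIRS-seq values are raw counts of RT stops per transcript position, deposited by the authors without normalization; reads had been mapped to mm9 carrying E14 variants, with Bowtie 1.0.0 and bedtools 2.17.0 named in the submitters' processing notes. How reads with several places were assigned is not given in the sources used here. The RNA-seq file lists 31857551 alignments of 50 bases to mm9 (TopHat2 2.0.6), deposited as positions. Files pooling both replicates of a treatment were not used.

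The members and lists were chosen with earlier results of these data known. Positions were joined by genome coordinate and counted once per gene, as the highest count over isoforms, using GENCODE vM1, and regions were taken from the reference mRNA. Counts per gene, per base, per region and per position were tested with edgeR 4.0.16 (TMM scaling, filterByExpr, quasi-likelihood, Benjamini-Hochberg over all features, threshold 0.05) in 1 fit of all 6 libraries without covariates. Positions found once needed at least 50 stops. Each ± value of a log2 fold change is its absolute value divided by the square root of the quasi-likelihood F statistic. The edgeR fit was tested on counts simulated with changes in the DMS libraries, per gene, base, region and position; the CMCT contrast and DESeq2 were not simulated. Library totals ran from 181944556 to 338201940 stops. Alternatives were DESeq2 1.42.0, its size factors, a replicate block, no low-count filter, positions found once, all positions, a minimum of 100 stops, scaling by the gene's own stops, 1 transcript per gene and leaving out each library. Reactivity used a pseudocount of 1 and 90% Winsorising, following the study's methods. RNA-seq alignments were assigned by midpoint to exons of a single gene.

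All 10 members are named. For each reagent, the 2 positions of a member with the largest passing fold change, above both NT libraries, were eligible to be named, and other chaperones only at the extremes of their list. All 6 libraries were kept as separate samples, since replicates differed at most positions. PCR duplicates could not be told from separate molecules, and intervals cover counting error only.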

Additional observations from a re-analysis of the deposited data

How the results depend on the processing

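Of the members' single gene, base and region values, 1507 alternatives kept direction and side of the threshold, and 71 changed sign without passing in either setting. A further 93 lost the call, 48 gained it and 1 passed with the opposite sign. That 1 was Hspa8 at adenines after DMS, at 0.70 without passing in the main fit and at -1.29 at positions found once. The number of genes called was 1030 for DMS and 641 for CMCT at positions found once, against 3485 and 3827, and 5595 for DMS with DESeq2. Features of the 10 mRNAs called per gene were then 1 and 0, and 3 and 4 with DESeq2. DESeq2 called 22% of all genes higher and 20.3% lower after DMS. Its share after CMCT is not given, so these counts do not set the 10 mRNAs apart. Per gene and base for CMCT, 3195 were called at positions found once, against 11452, with 1 of the 10 mRNAs' features there, 0 under DESeq2's size factors and 1 with 1 transcript per gene, against 5. The totals over all features are not given for DESeq2's size factors or for 1 transcript per gene. Per region, 64 and 747 were called at positions found once, against 2341 and 3192, with 0 of the members' for DMS. Per position, 110596 passed for DMS and 42934 for CMCT over all positions (1035 and 302 of the members'), 2854 and 86 for DMS with at least 100 stops, and 3 for CMCT when scaled by the gene's own stops.

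The replicate numbers are only shared: the correlation of same-numbered deviations was 0.554 for NT and DMS, 0.0108 for NT and CMCT and -0.107 for DMS and CMCT. With the replicate number as a block, 5616 genes were called for DMS, 2 of them members. For CMCT, 3 members were called per gene and 8 member features per base. The totals over all genes and bases are not given for these, so they do not set the 10 mRNAs apart. Per region 4463 and 5207 were called, with 10 and 13 of the members'.

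Leaving out 1 library, calls per gene ran from 1719 to 4619 for DMS (members 0 to 1) and 1600 to 4402 for CMCT (0 to 1); per base 12695 to 19638 (9 to 12) and 4791 to 13900 (0 to 4); per region 1366 to 2660 (2 to 6) and 1012 to 4068 (1 to 4); per position 0 to 6691 (0 to 126) for DMS and 0 for CMCT.

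The median RT stops per base over the 10 with 1 transcript per gene rose to 2.05 (NT), 2.39 (DMS) and 3.30 (CMCT) from 1.69, 2.01 and 2.28, and at positions found once came to 1.67 (DMS) and 1.68 (CMCT). The median RNA-seq level, 92.1, became 94.5 with shared alignments, 104 with the length found once, which counts listed isoforms only, 108 with reads listed once, and 133 with those over positions found once. The last 2 are scaled to the reads listed once and the others to all alignments. Dividing by the positions found once leaves reads elsewhere in the exons counted, so those values can be too high. Median reactivity was 0.212 (5′ UTR) and 0.285 (3′ UTR) at positions found once, and 0.150, 0.373 and 0.198 (5′ UTR, coding, 3′ UTR) with a pseudocount of 5; without 1 replicate it ran from 0.162 to 0.192, 0.406 to 0.417 and 0.240 to 0.251. The cause of these shifts was not tested. Alternatives on reads listed on 1 line, on Hspa8 positions near Snord14 and on 1 transcript per gene for the tests were chosen after seeing the data. With 2 libraries a group, Hsph1 and Hspd1 had 5 and 30 positions deep enough to test, which limits what single positions of these mRNAs can show.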
